A study of Mus musculus with 5 samples.

Results

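Collagens are the main structural proteins of connective tissue, and their genes were followed here in CD4 T cells sorted from mouse colon. The members are the genes whose only symbol on the array annotation reads Col, a number, the letter a and a number. There were 44 such genes among 19937 genes tested, and where a gene had several probe sets the brightest on average stood for it. The study compared cells with the surface phenotype CD45+CD3+CD4+CD44low from the colonic lamina propria of conditional mice (CD4cre/Cnb1flox) and of control mice (CD4neg/Cnb1flox, which the labels also call WT). Both groups carry the floxed Cnb1 gene, which encodes the regulatory subunit of the phosphatase calcineurin, and the conditional mice alone carry Cre recombinase driven by CD4. Cre under CD4 control acts in the T cell lineage. The labels name no treatment, all mice were kept specific pathogen-free, and the sources used here do not state their ages. There were 3 conditional and 2 control arrays, and their number limits the precision of every value. Whether an array held RNA of 1 mouse or a pool is not stated, so the p-values rest on the spread between these samples, and part of that spread may be technical.

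Collagen chains wind around each other into a triple helix, which rests on glycine recurring at regular positions along each chain. Chains of types I, III and V build the banded fibrils of the gut wall, type IV the sheet of basement membranes, and type VI beaded filaments between them. In the lamina propria, fibroblasts are the main source of fibrillar and type VI collagen, while smooth muscle, pericytes, endothelium and epithelium contribute to basement membranes. T cells are known as cells that adhere to collagen through integrins rather than as its producers.

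The arrays differed in the markers of the labelled cell type. Over 12 of 14 T cell markers the mean log2 signal was 10.97 to 11.21 on the conditional arrays and 11.34 on control replicate 2, but 8.54 on control replicate 1, where all 12 were at their lowest. None of the 12 passed against both controls, and 12 were higher against control replicate 1 (limma). Against control replicate 2 the list's median was -0.37, with 10 of 12 lower in the mean and 2, Lat and Cd247, past the threshold as lower (adjusted p = 0.0289 and 0.038, limma). Trat1, Cd2 and Cd5 act at the T cell receptor and synapse. From the mean of both controls they differed by 2.76, 1.31 and 1.39 (limma, adjusted p = 0.374, 0.392 and 0.542). From control replicate 2 the differences of these 3 genes were 0.76, 0.32 and -0.13. Cd3e, a chain of the T cell receptor complex, read 11.67, 11.61 and 11.88 on conditional replicates 1, 2 and 3 and 9.45 and 12.21 on control replicates 1 and 2. Cd4 read 11.44, 11.55 and 11.86 against 9.26 and 11.83, and Ptprc, which encodes CD45, read 11.43, 11.54 and 11.59 against 9.84 and 11.99. On all 3 genes control replicate 1 was far below the other arrays. Fibroblast markers ran the other way, with a mean over 11 of 12 genes of 10.52 on control replicate 1, 9.40 on control replicate 2 and 9.37, 9.16 and 8.44 on conditional replicates 1, 2 and 3. Cd44, also part of the sorted phenotype, read 10.82, 10.975 and 11.15 on the conditional and 10.29 and 10.05 on the control arrays. It differed by 0.81 between the groups (limma, adjusted p = 0.115), and by 0.69 and 0.93 from control replicates 1 and 2. Ppp3r1, the symbol of Cnb1, differed by -0.052 between the groups (limma, adjusted p = 0.927). The Ppp3r1 probe set may lie outside the deleted part, in which case it checks nothing. Since control replicate 1 stood apart, the collagen differences below are given from both controls together and from each control array, with its own value beside them. A difference from both controls is one from their mean.

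No collagen gene passed the test against both controls, and the family separated into chains that were high on control replicate 1 and chains that differed little between arrays. Of the 44 genes, 36 had a lower mean in conditional cells (44.1% of all genes did), and the median difference was -0.24 on the log2 scale, beside 0.029 over all genes tested. In limma with Benjamini-Hochberg adjustment over all genes, 0 collagens were past an adjusted p of 0.05 in either direction, against 0.0451% of all genes called lower and 0.371% called higher. At an unadjusted p of 0.05 there were 5 lower collagens, or 11.4%, where 5.91% of all genes met that bar, and 0 higher ones, where 8.59% of all genes did. These were Col1a1, Col3a1, Col6a3, Col8a1 and Col14a1. Without conditional replicates 1, 2 and 3, the collagens at that p in either direction were 4, 1 and 2, beside 2037, 1677 and 1417 of 19937 genes. With the replicate number as a block they were 13, beside 1634 genes. All 3 conditional values lay below both controls for 11 collagens (25%), compared with 13.1% of all genes, and above both controls for 0, compared with 17.4%. The mean was lower by over 2-fold for 11 collagens, where 4.33% of all genes were.

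Against control replicate 1 alone, 17 collagens were lower in conditional cells at an adjusted p of 0.05 (limma), which is 38.6% of them beside 16.5% of all genes, and 0 were higher beside 11%. The mean was lower than control replicate 1 for 24 of 44, beside 38.7% of all genes. In that fit the lone control array is assumed to vary like the conditional ones. Against control replicate 2 alone, 0 collagens passed in either direction, beside 2.77% of all genes lower and 3.34% higher, although 41 of 44 had a lower mean in conditional cells (53.9% of all genes did). There 5 collagens had an unadjusted p under 0.05 and a lower mean (8.97% of all genes did), again Col1a1, Col3a1, Col6a3, Col8a1 and Col14a1, and 1, Col14a1, was lower by over 2-fold (1.56% of all genes). The 17 genes past the threshold had a median of -2.23 against control replicate 1, which chose them, and of -0.37 against control replicate 2, while the medians over all genes were 0.087 and -0.017. The smallest of the 17 differences was that of Col18a1, at -1.12. Among the other 27, the nearest were Col4a5 at -0.65 (adjusted p = 0.0989, limma) and Col24a1 at -0.55 (adjusted p = 0.0604, limma), named after their values were seen. The comparisons with each control share the 3 conditional arrays.

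**Figure D1:**
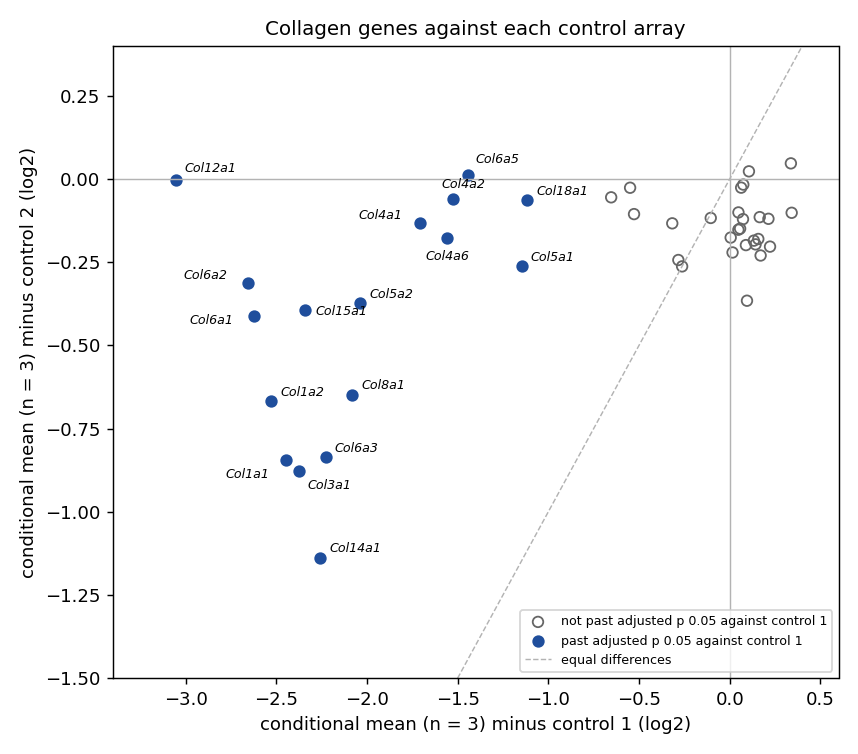
Each point is a collagen gene, placed by the mean of the 3 conditional arrays minus control replicate 1 (horizontal) and minus control replicate 2 (vertical), both in log2 units and on axes of different scale; filled points passed an adjusted p of 0.05 against control replicate 1 (limma) and the dashed line marks equal differences. The 17 filled points spread from -3.05 (Col12a1) to -1.12 (Col18a1) horizontally, and vertically only Col14a1, at -1.14, lies beyond -1.

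Promoter sequences of 4 of the 17 genes are shown as examples from the fibrillar, beaded filament and basement membrane classes. These 4 genes had their highest value on control replicate 1, which nearly restates how they were chosen. Each runs 5′ to 3′ in the gene's direction from RefSeq (build GRCm38.p6), ends before the annotated start, and has the motifs CCAAT and TATAAA, read on either strand, in capitals. For Col4a2 only 30 bases are printed, ending 6 bases before the annotated start of that gene.
Col1a2 (chr6:4505368-4505617, forward strand): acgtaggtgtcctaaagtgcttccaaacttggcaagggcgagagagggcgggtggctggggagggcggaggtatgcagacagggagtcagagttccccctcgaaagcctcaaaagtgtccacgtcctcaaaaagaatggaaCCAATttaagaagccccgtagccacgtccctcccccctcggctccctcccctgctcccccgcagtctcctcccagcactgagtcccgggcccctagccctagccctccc
Col3a1 (chr1:45311288-45311537, forward strand): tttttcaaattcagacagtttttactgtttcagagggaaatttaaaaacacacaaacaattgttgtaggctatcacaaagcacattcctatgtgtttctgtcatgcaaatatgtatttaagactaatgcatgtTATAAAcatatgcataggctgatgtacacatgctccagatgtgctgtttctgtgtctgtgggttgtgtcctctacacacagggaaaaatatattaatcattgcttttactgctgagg
Col6a1 (chr10:76726045-76726294, reverse strand): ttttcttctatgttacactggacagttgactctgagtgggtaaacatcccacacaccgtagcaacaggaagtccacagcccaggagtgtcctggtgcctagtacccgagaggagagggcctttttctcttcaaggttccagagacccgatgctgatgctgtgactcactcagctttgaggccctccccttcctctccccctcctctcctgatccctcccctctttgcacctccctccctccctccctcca
Col4a2 (chr8:11312770-11312799, forward strand): tccCCAATttgttggcgctgccccctcccc
The Col1a2 and Col4a2 stretches hold CCAAT, that of Col3a1 holds TATAAA, and the Col6a1 stretch holds neither. Guanine and cytosine made up 62.0% of the Col1a2 stretch, 35.2% of that of Col3a1 and 56.0% of that of Col6a1. Windows of 300 bases, from 250 before to 50 after each start, were at hand for 35 of 44 collagens. A gene was counted once if any of its windows held the motif. CCAAT, on the other strand ATTGG, was in 4 of 13 genes past the threshold against control replicate 1. It was in 9 of 22 of the other collagens, beside 41.1% of all genes with a window. TATAAA, on the other strand TTTATA, was in 1 of 13 and 4 of 22, beside 15.7%, and the GC box GGGCGG, on the other strand CCGCCC, was in 9 of 13 and 13 of 22, beside 38.2%. Overlapping matches of different motifs were all counted. A match is a description of letters and not a binding site.

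Fibrillar collagens included chains of types I, III and V that were high on control replicate 1. Of the 11 genes, all had a lower mean in conditional cells (median -0.32), beside 44.1% of all genes. In 6 every conditional array was below both controls, beside 13.1% of all genes. Against control replicate 1 the class median was -0.55. Col1a1, which encodes the main chain of type I collagen, read 9.50, 9.10 and 8.76 on conditional replicates 1, 2 and 3 and 11.56 and 9.96 on control replicates 1 and 2. Every conditional array was below both controls, and the lowest was conditional replicate 3. The means were 9.12 ± 0.369 (SD, n = 3) and 10.76 ± 1.13 (SD, n = 2), a difference of -1.64 ± 0.512 (SE; limma, adjusted p = 0.255). At 95% confidence it ranged from -2.95 to -0.33. Against control replicate 1 the difference was -2.44 (adjusted p = 0.00287, limma), 5.44-fold lower, and against control replicate 2 it was -0.85 (adjusted p = 0.158).

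Its partner chain Col1a2 read 9.78, 9.27 and 8.53 in conditional and 11.72 and 9.86 in control cells, again without overlap. Conditional replicate 1 and control replicate 2 were close for this gene, and conditional replicate 3 was far below. Col1a2 differed by -1.598 ± 0.648 (SE; limma, adjusted p = 0.361) against both controls, by -2.53 against control replicate 1 and by -0.67 against control replicate 2. Col3a1, the chain of type III collagen, which forms thin reticular fibres in the gut, read 8.86, 8.65 and 8.21 against 10.95 and 9.45. Its groups were apart, and it differed by -1.63 ± 0.479 (SE; limma, adjusted p = 0.233), by -2.38 against control replicate 1 and by -0.88 against control replicate 2.

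Type V chains, which sit inside type I fibrils and set their diameter, were read at 8.19, 7.72 and 7.87 (conditional) and 9.07 and 8.19 (control) for Col5a1. Conditional replicate 1 and control replicate 2 met at nearly the same value for this gene, which differed by -0.70 from both controls (limma, adjusted p = 0.384), by -1.15 from control replicate 1 and by -0.26 from control replicate 2. Col5a2 read 7.27, 6.99 and 6.86 against 9.08 and 7.41, a difference of -1.20 (limma, adjusted p = 0.371), and was 4.1-fold lower than control replicate 1, while the difference from control replicate 2 was -0.37. The last type V chain, Col5a3, went apart from these, at 7.68, 7.14 and 7.60 against 7.74 and 7.74. Both its control values were nearly equal and above all conditional values. The conditional mean differed by -0.26 from both (limma, adjusted p = 0.598). Col27a1, a fibrillar chain of cartilage, read 8.46, 7.92 and 8.17 against 8.71 and 8.29, with overlap. It differed by -0.32 from both controls and by -0.53 and -0.11 from control replicates 1 and 2.

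Fibrillar chains best known from cartilage differed little between arrays. Col2a1 read 8.15, 7.73 and 8.01 in conditional and 7.95 and 8.18 in control cells and differed by -0.10 (limma, adjusted p = 0.86), and Col11a2 read 7.98, 7.52 and 7.91 against 7.64 and 7.98, a difference of -0.011. For both genes control replicate 1 lay inside the conditional range. From control replicates 1 and 2 Col2a1 differed by 0.016 and -0.22, and Col11a2 by 0.16 and -0.18. The other fibrillar genes, Col11a1 and Col24a1, had means below the median of all genes.

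**Figure D2:**
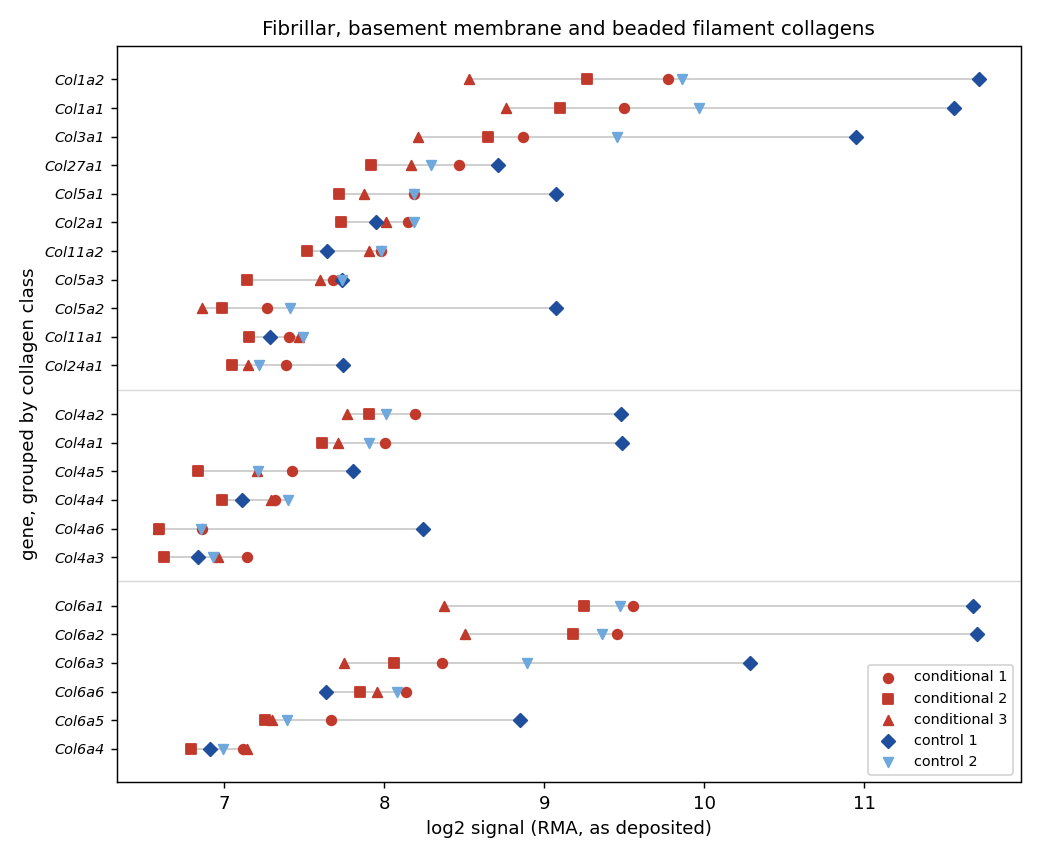
Rows are collagen genes of the fibrillar, basement membrane and beaded filament classes (top to bottom), and the horizontal axis is the deposited log2 signal; each symbol is an array, red for the 3 conditional and blue for the 2 control arrays, and grey lines span the range. Control replicate 1 (dark diamond) stands to the right for Col1a1 at 11.56 and for Col6a2 at 11.70, while for Col6a6 it is the lowest, at 7.64. Levels of different genes are not comparable, since probe sets differ in brightness.

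Basement membrane collagens were split by chain. Of the 6 type IV genes, 0 had groups fully apart, where 13.1% of all genes were below and 17.4% above both controls. Their median difference was -1.09 from control replicate 1 and -0.095 from control replicate 2. Col4a1 and Col4a2 encode the chains of the type IV network found in nearly all basement membranes, and their genes lie head to head. Col4a1 read 8.002, 7.61 and 7.71 in conditional and 9.48 and 7.91 in control cells, and Col4a2 read 8.19, 7.90 and 7.77 against 9.48 and 8.01. For Col4a1 and Col4a2 alike, control replicate 1 was above every other array and control replicate 2 lay within the conditional range. The differences from both controls were -0.92 ± 0.476 and -0.79 ± 0.448 (SE; limma, adjusted p = 0.46 and 0.491). From control replicate 1 they were -1.71 and -1.53, and from control replicate 2 -0.13 and -0.058.

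The other type IV chains are found in fewer tissues. Col4a6 read 6.86, 6.59 and 6.59 on conditional arrays and 8.24 and 6.86 on control arrays, a difference of -0.87 (limma, adjusted p = 0.429) that was -1.56 taken from control replicate 1 and -0.18 from control replicate 2. Only control replicate 1 stood out. Its head-to-head neighbour Col4a5 read 7.42, 6.83 and 7.21 against 7.81 and 7.21, with the same array highest and a smaller gap, -0.65, from control replicate 1. Col4a3 and Col4a4, which also share a locus, lay at 7.14, 6.63 and 6.96 against 6.84 and 6.93 and at 7.32, 6.99 and 7.29 against 7.11 and 7.40. Control replicate 1 was below the conditional mean for both, and the differences from it were 0.075 and 0.09.

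Beaded filament collagen had the class median farthest from 0, -1.10 over 6 genes against both controls and -1.84 against control replicate 1. In 1 gene every conditional array was below both controls, beside 13.1% of all genes. Col6a1, Col6a2 and Col6a3 encode the chains of the common type VI filament, which links cells to the fibrils. Col6a1 read 9.56, 9.25 and 8.37 against 11.68 and 9.47, and Col6a2 read 9.45, 9.18 and 8.51 against 11.70 and 9.36. In both, control replicate 2 lay within the conditional range and control replicate 1 lay over 2 log2 units above every other array. Their differences were -1.52 ± 0.729 and -1.48 ± 0.732 from both controls (SE; limma, adjusted p = 0.43 and 0.439), -2.62 and -2.66 from control replicate 1, and -0.41 and -0.31 from control replicate 2. Col6a3 read 8.36, 8.06 and 7.75 against 10.28 and 8.89. Here all conditional arrays were below both controls. The mean differed by -1.53 ± 0.445 (SE; limma, adjusted p = 0.229) from both, by -2.23 from control replicate 1 and by -0.84 from control replicate 2 (adjusted p = 0.115, limma, the smallest of any collagen against that array).

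Col6a4, Col6a5 and Col6a6, further type VI chains, lie side by side in the genome. Col6a5 read 7.67, 7.25 and 7.30 in conditional and 8.85 and 7.39 in control cells, high on control replicate 1 only, with a difference of -0.72 from both controls (limma, adjusted p = 0.536), of -1.44 from control replicate 1 and of 0.012 from control replicate 2. Its other probe set showed the same array still further apart, at 6.71, 6.81 and 6.18 against 9.45 and 6.14. Col6a6 was lowest on control replicate 1, at 8.14, 7.85 and 7.95 against 7.64 and 8.08, a difference of 0.12 (limma, adjusted p = 0.837), or 0.34 and -0.10 from control replicates 1 and 2. Col6a4 had a mean below the median of all genes.

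FACIT collagens coat the surface of fibrils, and the class held the largest difference against both controls as well as genes that differed little. Its median was -0.03 over 9 genes, and 0.13 and -0.18 against control replicates 1 and 2. Col14a1, a marker of fibroblasts in many tissues, read 9.95, 9.52 and 8.73 in conditional and 11.66 and 10.54 in control cells. All conditional arrays were below both controls. The means were 9.40 ± 0.617 (SD, n = 3) and 11.10 ± 0.79 (SD, n = 2), and the difference of -1.70 ± 0.485 (SE; limma, adjusted p = 0.225; -2.94 to -0.46 at 95% confidence) was the largest of the family against both controls. Taken from control replicate 1 it was -2.26, and taken from control replicate 2 it was -1.14, the latter the only collagen difference over 2-fold from that array (adjusted p = 0.221, limma).

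Col12a1, a fibril-coating chain of tissues under tension, had the widest spread of the family. It read 9.29, 9.09 and 7.13 on conditional and 11.56 and 8.51 on control arrays. Conditional replicate 3 was the lowest and control replicate 1 the highest, 4.43 log2 units apart, and control replicate 2 lay below conditional replicates 1 and 2. Col12a1 differed by -1.53 ± 1.11 (SE; limma, adjusted p = 0.598) from both controls, by -3.05 (adjusted p = 0.0419, limma) from control replicate 1, and by -0.0017 from control replicate 2. Col12a1 and Col14a1 thus ordered the same arrays differently, since control replicate 2 was above all conditional arrays for Col14a1 only.

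The remaining FACIT chains overlapped between groups. Col16a1 read 7.74, 7.40 and 7.64 in conditional and 7.91 and 7.73 in control cells, a difference of -0.22. Col9a2 and Col9a3, chains of cartilage type IX collagen, read 8.28, 7.80 and 8.24 against 7.94 and 8.22, and 8.41, 7.94 and 8.24 against 8.02 and 8.42. On both, control replicate 1 lay within the conditional range, and they differed by 0.026 and -0.03. Col20a1 read 7.96, 7.59 and 7.80 against 7.65 and 7.97, a difference of -0.026, and Col22a1 read 7.75, 7.40 and 7.64 against 7.37 and 7.80, a difference of 0.0097. Adjusted p for these 5 genes (limma, both controls) lay between 0.555 and 0.99. From control replicate 1 Col16a1 differed by -0.32, and the other 4 by 0.13 to 0.22. From control replicate 2 Col16a1 differed by -0.13, and the other 4 by -0.23 to -0.11.

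Multiplexins, Col15a1 and Col18a1, link basement membranes to the matrix beneath, and the tail of type XVIII collagen is released as endostatin. Both were highest on control replicate 1, as were 26.8% of all genes. Col15a1 read 8.59, 8.28 and 7.80 in conditional and 10.57 and 8.62 in control cells, and Col18a1 read 8.05, 7.61 and 7.75 against 8.92 and 7.87. For Col15a1 conditional replicate 1 and control replicate 2 nearly touched, and for Col18a1 they crossed. The differences were -1.37 ± 0.609 and -0.59 ± 0.341 (SE; limma, adjusted p = 0.398 and 0.5) from both controls, -2.34 and -1.12 from control replicate 1, and -0.39 and -0.064 from control replicate 2.

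Short-chain network collagens were represented by Col8a1, a chain found around vessels and in smooth muscle, together with Col8a2 and Col10a1. Col8a1 read 8.09, 8.01 and 7.49 on conditional and 9.95 and 8.51 on control arrays, with every conditional array below both controls. It differed by -1.37 ± 0.46 (SE; limma, adjusted p = 0.285) from both controls, by -2.08 from control replicate 1 and by -0.65 from control replicate 2. Both other short-chain genes lay below the median of all genes in mean level.

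Anchoring fibril, transmembrane and remaining collagens differed little, and 0 of these 7 genes passed against either control array. Col7a1, which anchors epithelial basement membranes, read 8.08, 7.69 and 7.995 in conditional and 7.87 and 8.02 in control cells, a difference of -0.026. Col13a1, a membrane-bound chain, read 7.92, 7.65 and 7.75 against 7.70 and 7.89, and Col26a1 read 8.12, 7.81 and 8.17 against 7.82 and 8.15. They differed by -0.024 and 0.047, with overlap. From control replicates 1 and 2 the differences were 0.048 and -0.10 for Col7a1, 0.073 and -0.12 for Col13a1, and 0.21 and -0.12 for Col26a1. Col23a1, also membrane-bound, read 7.95, 7.71 and 7.68 against 8.06 and 8.02, and its conditional arrays were all below both controls. That difference was -0.26 ± 0.128 (SE; limma, adjusted p = 0.434), about as far from control replicate 1 (-0.28) as from control replicate 2 (-0.24).

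The 13 collagens with a mean below the median of all genes that did not pass against either control, among them Col4a3, Col4a4 and Col4a5 above, differed by -0.35 to 0.19 from both controls (limma, adjusted p from 0.585 to 0.972). The lowest of their 5 arrays was conditional replicate 2 in 12 of them. Over all 44 collagens conditional replicate 2 was the lowest array in 27 (61.4%), beside 23% of all genes, and conditional replicate 3 in 14 (31.8%), beside 12.4%. The deposited values carry no call against background, so whether these chains were expressed at all was not tested.

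**Figure D3:**
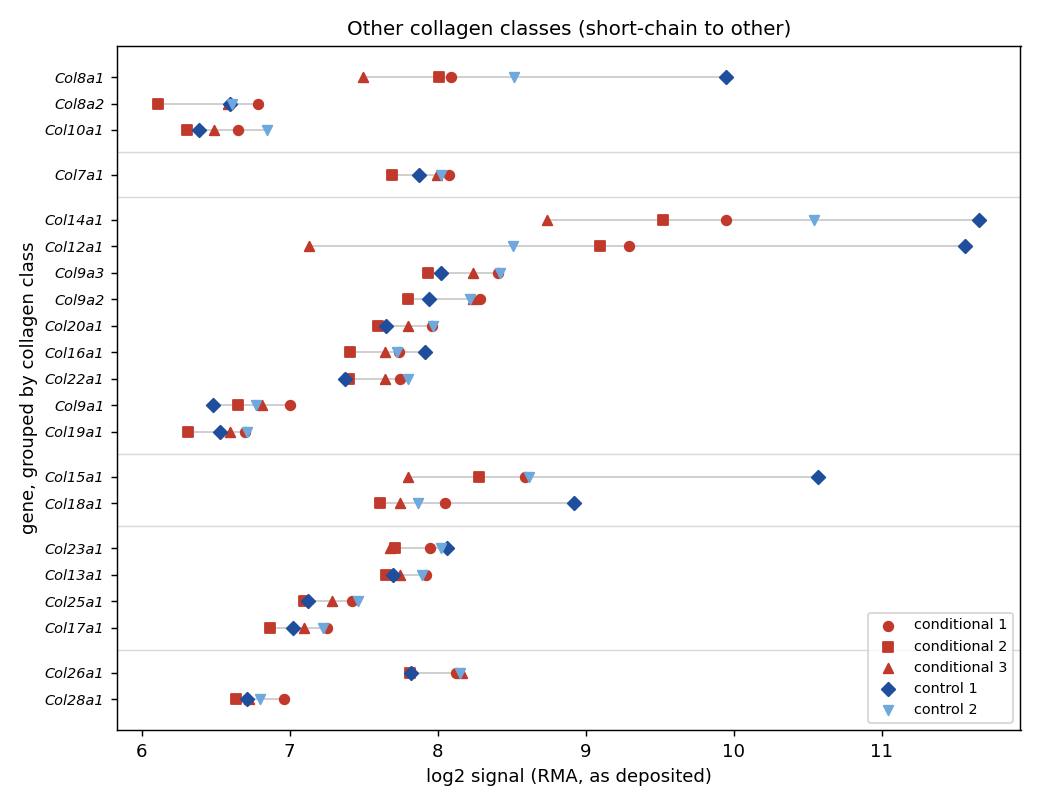
Rows are collagen genes of the short-chain network, anchoring fibril, FACIT, multiplexin, transmembrane and other classes (top to bottom), and the horizontal axis is the deposited log2 signal, with the 3 conditional arrays in red and the 2 control arrays in blue. Col8a1, Col14a1, Col12a1, Col15a1 and Col18a1 have long grey range lines ending at control replicate 1, up to 11.66 for Col14a1, while the other genes span 0.27 to 0.67 log2 units.

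Collagen values also varied between arrays of the same genotype. Control replicate 1 was the highest of the 5 arrays for 22 of 44 collagens (50%), beside 26.8% of all genes. It exceeded control replicate 2 by 3.05 for Col12a1, by 2.34 for Col6a2 and by 1.60 for Col1a1. Among conditional arrays, replicate 1 exceeded replicate 3 by 2.16 for Col12a1, by 1.24 for Col1a2, by 1.22 for Col14a1 and by 1.19 for Col6a1. These gaps, which have no array in common, went together across the 44 collagens (Pearson r = 0.83, Spearman rho = 0.82), and over all genes r was 0.55 and rho 0.31. Genes are not independent replicates, the arrays were normalized together, and the correlation is a description.

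**Figure D4:**
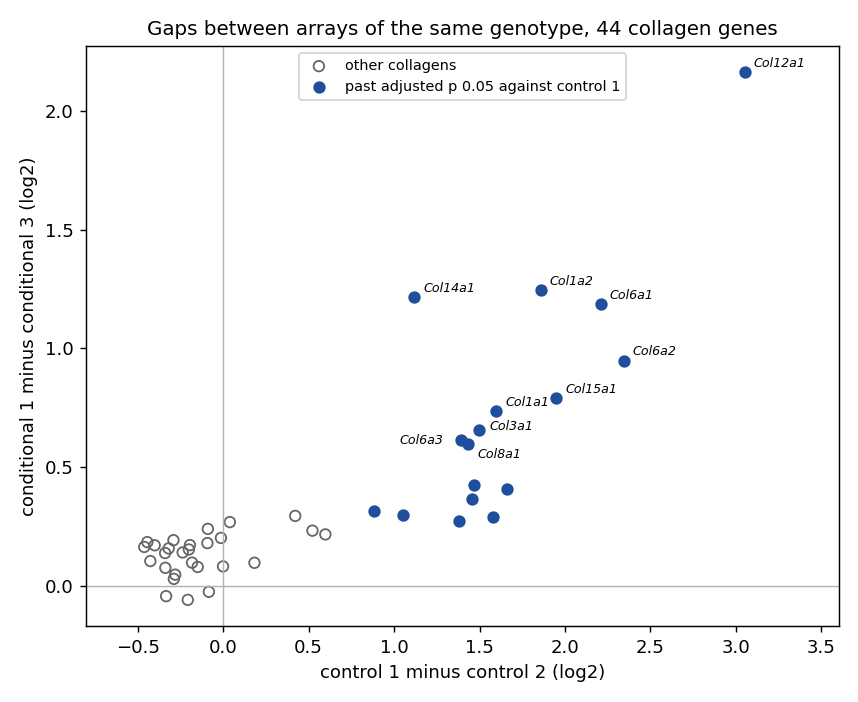
Each point is a collagen gene, placed by control replicate 1 minus control replicate 2 (horizontal) and conditional replicate 1 minus conditional replicate 3 (vertical), in log2 units; filled points passed an adjusted p of 0.05 against control replicate 1 (limma). Col12a1 is farthest out, at 3.05 and 2.16, and Col14a1 combines a gap of 1.12 between controls with 1.22 between conditional arrays.

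Chains that neighbour each other among protein-coding genes could be compared in 8 pairs (gene order from GRCm38.p6). Both members passed against control replicate 1 in 3 pairs, Col3a1 with Col5a2, Col6a1 with Col6a2 and Col4a1 with Col4a2. In 3 pairs only 1 member did, Col6a5 beside Col6a6, Col6a5 beside Col6a4 and Col4a6 beside Col4a5. Neither did for Col4a3 with Col4a4 and Col9a1 with Col19a1.

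Genes that make and crosslink collagen were also high on control replicate 1. Of 30 measured, 26 had a lower mean in conditional cells (median -0.73; 44.1% of all genes had a lower mean). Of these genes 0 passed against both controls, 22 passed as lower against control replicate 1 and 2, Pcolce2 and P4ha1, against control replicate 2 (limma), beside 16.5% and 2.77% of all genes. Pcolce2, a helper of procollagen cleavage, read 7.80, 7.73 and 7.25 in conditional and 10.02 and 9.50 in control cells. It was far below both controls, with a difference of -2.17 just short of the threshold (limma, adjusted p = 0.0545), of -2.43 from control replicate 1 and of -1.91 from control replicate 2. Loxl1, a crosslinking oxidase, and Adamts14, a procollagen protease, differed by -1.48 and -0.48 (limma, adjusted p = 0.179 and 0.183).

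Matrix proteins that accompany fibrils had a median of -1.34 over 18 genes, and none passed against both controls, while 11 were lower against control replicate 1 and 0 against control replicate 2. In 17 of the 18, control replicate 1 was the highest array, and in 16 conditional replicate 3 was the lowest. Mfap5, a microfibril protein, differed by -2.15 (limma, adjusted p = 0.121), Fbln2 by -1.80 (adjusted p = 0.237) and Eln, elastin, by -1.03 (adjusted p = 0.271). Laminins and other basement membrane proteins had a median of -0.61 over 14, with 0 past both controls and 11 lower and 1, Npnt, higher against control replicate 1. Against control replicate 2 Lama3 passed as lower (-1.02, adjusted p = 0.0342, limma) and Lamc1, a laminin chain, as higher (1.02, adjusted p = 0.0115). Lamc1 was lower against control replicate 1 (-0.72, adjusted p = 0.00822, limma), so the controls gave it opposite directions. Nid1, which ties laminin to type IV collagen, differed by -1.77, the laminin chain Lama3 by -0.71, and Npnt, an integrin ligand of basement membranes, by 0.88 in the opposite direction (limma, adjusted p = 0.241, 0.269 and 0.166).

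Collagen-binding receptors had a median of -0.33 over 11 genes, with 0 past both controls and 7 lower and 1 higher, Lair1, against control replicate 1, and 0 past control replicate 2. Ddr1, a receptor kinase for collagen, read 7.72, 7.66 and 7.67 against 8.32 and 8.11, a difference of -0.53 (limma, adjusted p = 0.144). Itga11, an integrin chain of fibroblasts, differed by -1.52 and Mrc2, an uptake receptor for collagen, by -1.27 (adjusted p = 0.326 and 0.413). Collagen-degrading enzymes had a median of -0.55 over 8, with 0 past both controls and 4 lower and 1, Mmp8, higher against control replicate 1. Mmp8, the neutrophil collagenase, was higher in all conditional arrays, at 5.58, 5.70 and 5.62 against 4.75 and 4.71, a difference of 0.90 (limma, adjusted p = 0.0545), whereas Fap, a surface protease of activated fibroblasts, read 5.90, 6.13 and 5.83 against 7.39 and 6.93, a difference of -1.21 (limma, adjusted p = 0.0833), and Mmp14 differed by -1.37. Against control replicate 2, Mmp8 passed as higher and Fap as lower (adjusted p = 0.0169 and 0.0267, limma), and no other gene of the list passed.

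Most markers of fibroblasts, and all of smooth muscle and pericytes, were highest on control replicate 1. Fibroblast markers had a median of -1.31 against both controls, -1.93 against control replicate 1 and -0.47 against control replicate 2, with 0 past both controls and 6 lower and 1 higher against control replicate 1. The latter was Thy1, which T cells also express. Pdgfra, a growth factor receptor of fibroblasts, read 9.88, 9.67 and 8.11 in conditional and 11.73 and 9.36 in control cells. Control replicate 1 was the highest array and conditional replicate 3 the lowest, as for Col1a1 and Col12a1. Twist2, Dpt and Pi16 differed by -0.94, -1.38 and -0.40 (limma, adjusted p = 0.285, 0.321 and 0.296). Smooth muscle and pericyte markers had medians of -0.62, -1.45 and 0.10 against both controls, control replicate 1 and control replicate 2, with 10 of 10 highest on control replicate 1. Their mean level was 7.80, 7.50 and 7.16 on the conditional and 8.85 and 7.22 on the control arrays. None passed against both controls, 7 were lower against control replicate 1 and 0 passed against control replicate 2 (limma). Des, Actg2 and Cspg4 differed from both controls by -0.91, -0.69 and -0.58 (limma, adjusted p = 0.409, 0.545 and 0.575). Endothelial markers had medians of 0.12, -0.49 and 0.46 in the same order, with 0 of 12 past both controls or control replicate 2. Against control replicate 1 Tek passed as lower and Pecam1 as higher. Pecam1 read 9.40, 9.60 and 9.86 against 8.65 and 9.73, and Tek and Prox1 differed from both controls by -1.17 and -0.16 (limma, adjusted p = 0.187 and 0.688).

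Other cell types gave the following. Colon epithelial markers had a median of -1.40 over 15 genes, and of -2.28 and -0.14 against control replicates 1 and 2, where 11 and 2 (Krt20 and Slc26a3) passed as lower. Their mean level was 7.93, 7.71 and 7.50 on the conditional and 9.77 and 8.28 on the control arrays. Krt20, a keratin of surface colonocytes, fell by 1.67 on the log2 scale (limma, adjusted p = 0.0327), the only gene of these marker lists past both controls. It read 6.27, 5.95 and 6.25 in conditional and 7.88 and 7.76 in control cells, and with any 1 conditional array left out no gene of the array passed. Epcam read 8.23, 8.19 and 7.27 in conditional and 10.57 and 7.71 in control cells. Macrophage markers had a median above 0, at 0.76 over 9 genes, 5 of them above both controls on every conditional array, and 0 past both controls. The mean level of these markers was 7.67, 7.69 and 8.68 on the conditional and 7.18 and 6.97 on the control arrays. Cd14, a receptor for bacterial lipopolysaccharide, differed from both controls by 2.41, Lyz2, a lysozyme, by 2.08 and Adgre1, a macrophage surface receptor, by 0.68 (limma, adjusted p = 0.171, 0.209 and 0.265). Against control replicate 1 Cd14, Adgre1 and Cd68 passed as higher (adjusted p = 0.0495, 0.0423 and 0.0215, limma) and Mertk as lower, and against control replicate 2 only Cd14 passed (adjusted p = 0.0237, limma). B cell markers had a median of -0.54 over 5, with 0 past both controls or control replicate 1, and Pax5 and Ms4a1 lower against control replicate 2. From both controls Pax5, Ms4a1 and Cd79a differed by -0.62, -1.30 and -0.54 (limma, adjusted p = 0.193, 0.314 and 0.579). Enteric glia markers had a median of 0.046 over 4 and 0 passed in any of these comparisons, with differences of 0.13 for Gfap, 0.11 for S100b and -0.04 for Sox10. In such bulk samples fewer cells of a type and less RNA per cell cannot be told apart, and the part of stromal, epithelial, macrophage and T cell content in the collagen differences was not tested.

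**Figure D5:**
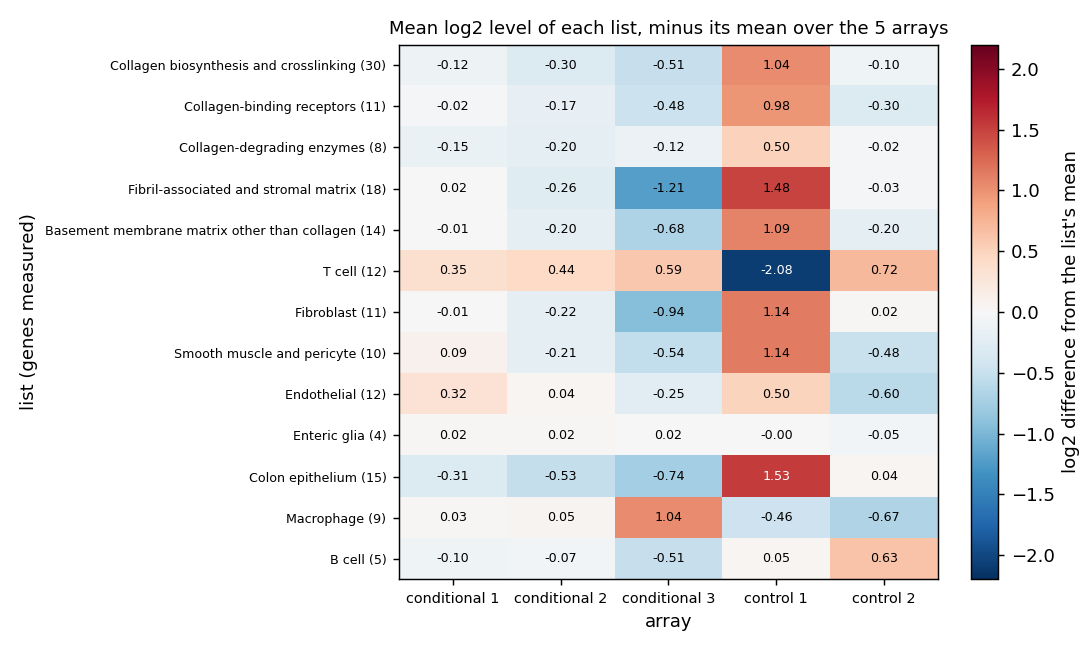
Each cell gives the mean log2 level of a list of genes (rows, with the number measured) on an array (columns), minus that list's mean over the 5 arrays; red is above and blue below. Control replicate 1 reads 1.48 for fibril-associated matrix and -2.08 for T cell markers, and conditional replicate 3 reads -1.21 for that matrix and 1.04 for macrophage markers.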

How the data were processed

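RNA from sorted cells was extracted with a column kit, converted to cDNA and biotin-labelled for Affymetrix arrays, with RNA integrity numbers of at least 9.2, per the labels' protocols. The authors deposited log2 values, for which the submitters' processing notes name RMA and oligo. RMA corrects background, equalises the arrays' distributions and summarises probes, so it removes global shifts and compresses dim genes. No software version is stated in the sources used here. Array medians ran from 7.12 to 7.23.

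Of 34760 probe sets, 21640 had 1 gene symbol in the platform annotation, which can be old, 1321 had several and 11799 were unnamed. All 44 collagen symbols were found by gene number in the reference table and 44 had the same symbol there. Groups came from the genotype labels. Differences were tested with limma 3.58.1 (R 4.3.3; lmFit, eBayes, no covariate, 3 residual and 2.10 prior degrees of freedom), adjusted over 19937 genes by Benjamini-Hochberg at 0.05, on all arrays and with each control array left out. The fit on all arrays was tested on simulated data in which each gene had the same spread on every array. The fits with a control array left out were not simulated. Collagens were described individually if their mean exceeded 7.44, the median of all genes, or if they passed with a control array left out; from each list, genes past the threshold or the 3 with the smallest p were named. Members and lists were chosen with earlier results of these data known. Alternatives were a variance trend, array weights, other scalings, filters on dim genes, other probe sets, the replicate number as a block and each array left out.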

Additional observations from a re-analysis of the deposited data

How the results depend on the processing

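Of 19937 genes, 83 passed against both controls, with 13 under array weights, 374 at an adjusted p of 0.1, 2892 at an unadjusted p of 0.05, and 0 (any conditional array left out) to 5474 (control replicate 2 left out) when 1 array was left out; without control replicate 1 there were 1217. The count of collagens was 0 under every alternative except 5 at an unadjusted p of 0.05 and 0 to 17 with 1 array left out, the 17 without control replicate 2. The collagen median, -0.24, was -0.32 to -0.11 with 1 array left out, -0.19 under array weights and -0.28 after another quantile normalization. Over the 30 collagens kept by the median filter it was -0.65. That filter uses the mean over all 5 arrays, so chains high on control replicate 1 were kept partly through that array. Col5a2, which was kept, read 9.08 on control replicate 1 and 6.86 to 7.41, below the filter's cut, on the other arrays. The value of -0.65 is therefore partly set by this selection. The collagens past the threshold against control replicate 1 were lower under every alternative that kept them, except Col6a5 without control replicate 1 (0.012). Control replicate 1 chose these genes and stayed in every other alternative, so their direction there was largely fixed in advance.

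Small differences turned sign. With 1 array left out, Col2a1 ran from -0.22 to 0.016, Col11a2 from -0.18 to 0.16, Col6a6 from -0.10 to 0.34, Col6a5 from -1.44 to 0.012, Col7a1 from -0.10 to 0.088, Col9a3 from -0.23 to 0.17, Col9a2 from -0.11 to 0.18, Col20a1 from -0.19 to 0.13, Col22a1 from -0.20 to 0.22, Col13a1 from -0.12 to 0.073 and Col26a1 from -0.12 to 0.21. Array weights gave 0.054 for Col11a2, 0.022 for Col7a1 and 0.0065 for Col9a3. Median centring gave -0.038, -0.054 and -0.016 for Col9a2, Col22a1 and Col26a1, and another quantile normalization -0.015 and -0.042 for Col9a2 and Col22a1. The causes were not tested. Among lists, leaving out 1 control array gave medians of -0.37 to 2.33 for T cell, -1.45 to 0.10 for smooth muscle and -0.49 to 0.46 for endothelial markers.

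The labels do not say that equal replicate numbers mark an experiment, and deviations of same-numbered arrays correlated at 0.40 and -0.29, which the group means fix in part. The replicate block, which rests on numbers 1 and 2 only, gave 69 genes and 0 collagens past the threshold. At an unadjusted p of 0.05 (limma) it gave 13 collagens, beside 1634 of all genes. With the block the collagen median was -0.23, and Col9a2, Col22a1 and Col26a1 differed by -0.039, -0.014 and -0.019. The block changed no other direction. With no call against background, dim collagens could not be told from absent ones.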
